A study of Mus musculus with 32 samples.

Results

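Chemokine mRNA was followed in the livers of mice that had lost the gene for glutathione synthesis. The set comprised 10 genes, Cxcl1, Cxcl2, Cxcl9, Cxcl10, Cxcl12, Cxcl13, Ccl2, Ccl6, Ccl9 and Ccl24, out of 20821 gene symbols in the table. They were taken by symbol, and they were chosen on their measured level in these livers, with differences between the genotypes already known. The counts below over the 10 genes are therefore descriptions. A gene entered the statistical comparison when it averaged 1 TPM or more over all mice (TPM, transcript abundance corrected for transcript length and scaled to the same total in each library), which 9 of the 10 genes and 11284 genes of the table reached.

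Chemokines are small secreted proteins that direct leukocyte movement through G protein-coupled receptors. The CXC and CC families are named by the spacing of their conserved cysteines, and both bind heparan sulfate on the vessel wall, where passing cells meet them. In the liver they are made by Kupffer cells (the resident macrophages), sinusoidal endothelial cells, stellate cells and hepatocytes, and many are induced by NF-kB or interferon signaling.

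Livers came from adult Gclc f/f Rosa26-CreERT2 mice (Gclc KO) and from Gclc f/f mice without Cre (Gclc WT), 4 of each. Gclc encodes the catalytic subunit of glutamate-cysteine ligase, which starts glutathione synthesis, and the CreERT2 is driven from a locus active in nearly all cells, so the deletion was not restricted to the liver. All 8 mice received tamoxifen (150 mg/kg i.p. per the labels) for 5 days, and livers were taken 14 days later. The controls carried no Cre, so the presence of CreERT2 and the loss of Gclc cannot be told apart. Each mouse was measured in 4 libraries, which were averaged into 1 value per mouse. Gclc mRNA was 77.8 to 138 TPM in the Gclc WT and 16.1 to 26.9 TPM in the Gclc KO livers, and markers of hepatocytes were abundant in all 8 livers. Gclc WT 3 stood apart, with summed neutrophil markers of 294 TPM against 3.53 to 22.9 TPM in the other 7 mice. Gclc WT 1 held 324 TPM of summed exocrine pancreas markers, against 6.86 to 37.3 TPM in the others. Xist, which is transcribed from the inactive X chromosome, was at 1 TPM or more only in mouse 3 of Gclc WT and mice 2 and 3 of Gclc KO, so the genotypes were not matched for it. Sequencing depth is unknown, since TPM does not keep it.

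Among the 9 chemokines compared, Cxcl1, Cxcl13, Ccl6, Cxcl10, Ccl2 and Ccl24 were higher and Cxcl9 was lower in Gclc KO livers, while Cxcl12 and Ccl9 did not pass the threshold. Differences were largest for Cxcl1 and Cxcl13, at 13.4-fold and 11.4-fold on the TPM + 1 scale. Over all 11284 genes, 12.8% were called higher and 8.61% lower (limma, Benjamini-Hochberg adjusted p of at most 0.05). Calls higher made up 59.7% of these, and 44.7% after scaling by a trimmed mean of M values, which left the calls of the 9 chemokines as they were. In 6 of the 9 chemokines every Gclc KO mouse lay above every Gclc WT mouse, in 0 below, and in 3 the genotypes overlapped. Over all genes these shares were 14.5% above and 10.2% below. The median log2 fold change was 1.38 over the 9 chemokines and 0.09 over all genes. Either batch of libraries alone gave the same calls for the 9 chemokines, except that Ccl24 was not called in batch 2. The tissue was measured whole, so fewer cells of a type and less RNA per cell cannot be told apart. Because the genes were chosen with these differences known, nothing further is read from these counts.

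**Figure D1:**
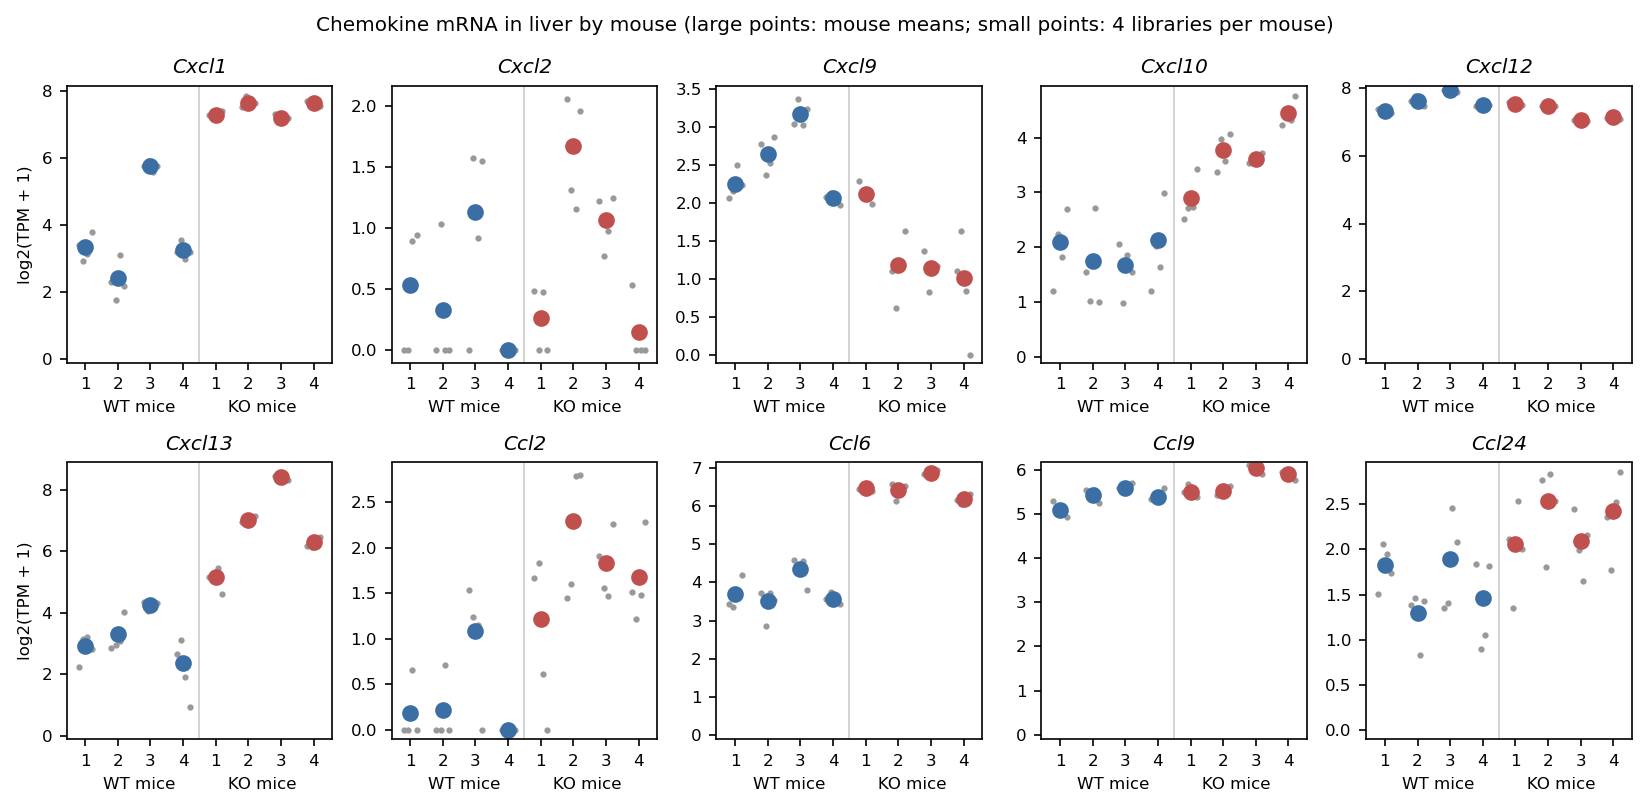
Each panel plots log2(TPM + 1) of 1 chemokine against the mouse, Gclc WT mice 1 to 4 in blue and Gclc KO mice 1 to 4 in red, with large points for mouse means, small grey points for the 4 libraries of a mouse and a scale of its own. For Cxcl1, Cxcl10, Cxcl13, Ccl2, Ccl6 and Ccl24 all red means lie above all blue means, and for Cxcl2 and Ccl2 several libraries sit at 0.

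Cxcl1 and Cxcl2 encode ligands of Cxcr2 that attract neutrophils. Cxcl1 (Entrez 14825) was 9.23, 4.35, 53.2 and 8.48 TPM in the Gclc WT mice 1 to 4 and 156, 199, 145 and 199.7 TPM in the Gclc KO mice 1 to 4. The lowest Gclc KO liver thus stood well above Gclc WT 3, which was itself above the other 3 Gclc WT livers. Means were 18.8 ± 23.0 and 175 ± 28.7 TPM (SD, n = 4 each). The log2 fold change was 3.75 (SE 0.58, 95% interval 2.44 to 5.06, limma adjusted p = 0.00329). Without Gclc WT 3, the mouse rich in neutrophil markers, the difference grew to 4.44 on the log2 scale (adjusted p = 1.48e-05), and without the 3 mice with Xist it was 4.46.

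Cxcl2 (Entrez 20310) is the nearest outside the threshold, with a mean of 0.69 TPM over the 8 mice. It was 0.45, 0.26, 1.20 and 0 TPM in the Gclc WT mice 1 to 4 and 0.20, 2.2, 1.10 and 0.11 TPM in the Gclc KO mice 1 to 4. The genotypes overlapped, with Gclc KO 2 above every Gclc WT mouse and Gclc WT 4 below every Gclc KO mouse, and Cxcl2 was listed at 0 in 10 of 16 Gclc WT and 5 of 16 Gclc KO libraries. Ccl2, at a mean of 1.42 TPM, is the nearest inside the threshold and reached it only through the Gclc KO mice.

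Cxcl1 and Cxcl2 are neighbors on chromosome 5 with 0 protein-coding genes between them, and their upstream sequences are shown because the 2 genes stood at such different levels. The 250 bases before the annotated start of each gene (RefSeq, mouse build GRCm38.p6) were searched on both strands for 4 motifs. These were an NF-kB motif (GGAATTTCC or its reverse complement GGAAATTCC), the interferon-stimulated response element (ISRE, GAAANNGAAA), an AP-1 motif (TGANTCA) and the antioxidant response element (ARE, TGACNNNGC), which AP-1 matches can overlap. Of 32851 such windows in the annotation, 0.286% held the NF-kB motif, 2.98% the ISRE, 6.75% the AP-1 motif and 10.2% the ARE. A window was found for 8 of the 10 genes, and Ccl2 and Ccl24 had none in the table used. Sequences are written 5′ to 3′ on the gene's own strand, end at the base before the start, and carry motif matches in capitals.
Cxcl1 (chr5:90891095-90891244, plus strand): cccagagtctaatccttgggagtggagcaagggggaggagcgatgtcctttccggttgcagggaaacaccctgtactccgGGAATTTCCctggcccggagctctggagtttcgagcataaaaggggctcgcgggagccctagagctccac
Cxcl2 (chr5:90903749-90903898, plus strand): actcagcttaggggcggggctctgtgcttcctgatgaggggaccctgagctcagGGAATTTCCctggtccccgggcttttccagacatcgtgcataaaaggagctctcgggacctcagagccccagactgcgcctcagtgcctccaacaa

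Both genes held the NF-kB motif as GGAATTTCC, 70 to 62 bases before the start in Cxcl1 and 96 to 88 bases before it in Cxcl2. A match describes letters only, and no binding was measured. Cxcl1 and Cxcl2 held none of the other 3 motifs in their windows.

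Cxcl9 and Cxcl10 encode ligands of Cxcr3, a receptor of activated T and NK cells, and both are known as interferon-inducible. They moved in opposite directions. Cxcl10 (Entrez 15945) was 3.27, 2.38, 2.18 and 3.36 TPM in the Gclc WT mice 1 to 4 and 6.44, 12.6, 11.2 and 20.9 TPM in the Gclc KO mice 1 to 4, without overlap. Its means were 2.80 ± 0.604 and 12.8 ± 6.02 TPM (SD, n = 4 each), a 3.41-fold rise on the TPM + 1 scale (log2 fold change 1.77, SE 0.28, 95% interval 1.13 to 2.41, limma adjusted p = 0.00387). With a pseudocount of 5 TPM the rise was 1.13 on the log2 scale.

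Cxcl9 (Entrez 17329) was 3.75, 5.26, 8.02 and 3.20 TPM in the Gclc WT mice 1 to 4 and 3.36, 1.28, 1.22 and 1.01 TPM in the Gclc KO mice 1 to 4. Gclc KO 1 lay within the Gclc WT range and the other 3 Gclc KO mice below it. Means were 5.06 ± 2.16 and 1.72 ± 1.10 TPM (SD, n = 4 each). Cxcl9 fell 2.24-fold on the TPM + 1 scale (log2 fold change −1.17, SE 0.30, 95% interval −1.84 to −0.49, limma adjusted p = 0.0244). The call was lost without Gclc WT 2, Gclc KO 2, Gclc KO 3 or Gclc KO 4 (adjusted p from 0.0557 to 0.0684) and without the 3 mice with Xist (adjusted p = 0.166).

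The ratio of Cxcl10 to Cxcl9 within a mouse was 0.871, 0.452, 0.272 and 1.05 in the Gclc WT mice 1 to 4 and 1.91, 9.89, 9.15 and 20.7 in the Gclc KO mice 1 to 4. Cxcl9 was thus the more abundant of the pair in 3 of 4 Gclc WT livers and Cxcl10 in all 4 Gclc KO livers. The third Cxcr3 ligand, Cxcl11, was below 1 TPM in every liver. The genes lie in a cluster on chromosome 5 with 1 protein-coding gene, Art3, between Cxcl9 and Cxcl10. Their upstream sequences are shown because this pair split.
Cxcl10 (chr5:92348890-92349109, minus strand): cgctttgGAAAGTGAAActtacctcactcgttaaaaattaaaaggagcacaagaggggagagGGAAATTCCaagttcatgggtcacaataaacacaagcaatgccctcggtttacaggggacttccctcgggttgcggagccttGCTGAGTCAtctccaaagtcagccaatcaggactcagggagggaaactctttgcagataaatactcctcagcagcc
Cxcl9 (chr5:92328080-92328229, minus strand): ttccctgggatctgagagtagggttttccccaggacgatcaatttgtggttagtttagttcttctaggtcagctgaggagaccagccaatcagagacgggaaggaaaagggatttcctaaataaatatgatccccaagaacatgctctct

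Cxcl10 held 4 matches in its window. They were the NF-kB motif as GGAAATTCC at 158 to 150 bases before the start, the ISRE as GAAAGTGAAA at 213 to 204, the AP-1 motif as TGAGTCA at 74 to 68, and the ARE as GCTGAGTCA at 76 to 68, which overlaps the AP-1 match. The Cxcl9 window held 0 matches to the 4 motifs as written. Only these exact forms were searched in every window, so other forms of an NF-kB site were not counted in either gene.

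**Figure D2:**
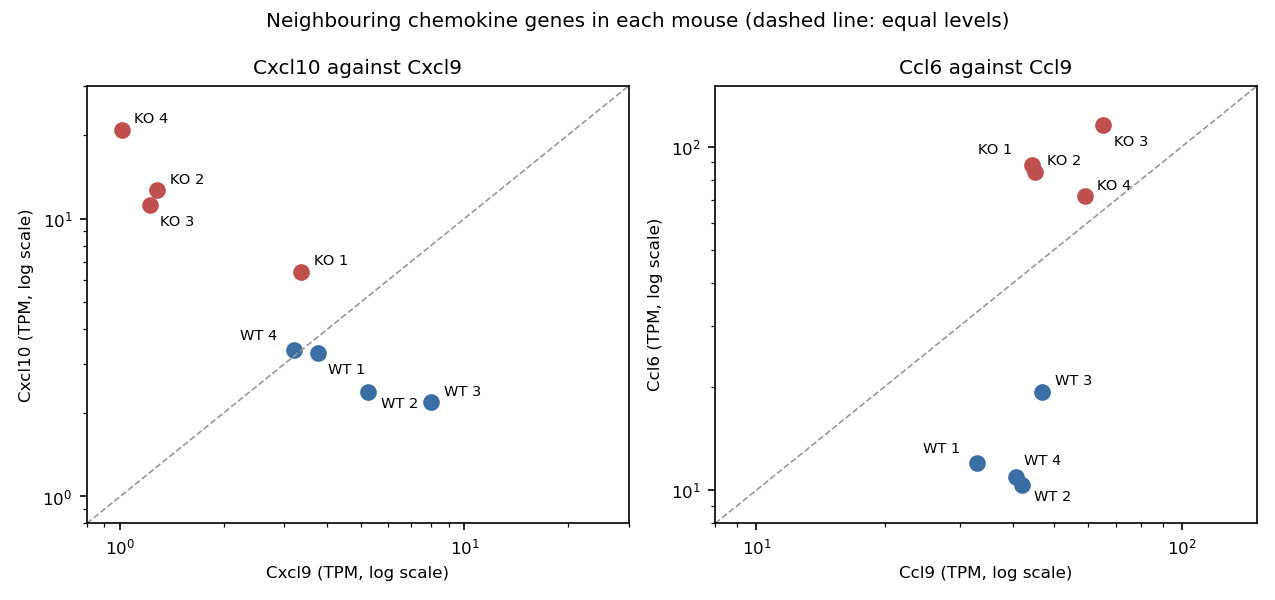
The left panel plots Cxcl10 against Cxcl9 and the right panel Ccl6 against Ccl9, both axes in TPM on a log scale, with 1 point per mouse (blue Gclc WT, red Gclc KO) and a dashed line of equal levels. In both panels all 4 Gclc KO mice lie above the line, while Gclc WT mice lie below it, except Gclc WT 4 in the left panel, whose ratio was 1.05.

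Cxcl12 encodes the ligand of Cxcr4, which retains hematopoietic cells in the bone marrow, and it was the most abundant chemokine in every Gclc WT liver. Cxcl12 (Entrez 20315) was 159.96, 195, 247 and 179 TPM in the Gclc WT mice 1 to 4 and 185, 177.5, 132 and 141 TPM in the Gclc KO mice 1 to 4. The genotypes overlapped. Means were 195 ± 37.2 and 159 ± 26.3 TPM (SD, n = 4 each), with a log2 fold change of −0.29 (SE 0.17, 95% interval −0.67 to 0.08, limma adjusted p = 0.239). The interval leaves room for a fall of up to 0.67 on the log2 scale.

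Cxcl13 encodes the ligand of Cxcr5 and attracts B cells and follicular helper T cells. Cxcl13 (Entrez 55985) was 6.52, 8.94, 18.2 and 4.2 TPM in the Gclc WT mice 1 to 4 and 34.9, 130.2, 345 and 77.3 TPM in the Gclc KO mice 1 to 4. The genotypes did not overlap, although the Gclc KO mice differed widely, with Gclc KO 3 highest and Gclc KO 1 lowest. Means were 9.45 ± 6.12 and 147 ± 138 TPM (SD, n = 4 each). The log2 fold change was 3.52 (SE 0.63, 95% interval 2.10 to 4.94, limma adjusted p = 0.00577). Without the 3 mice with Xist, which include the highest Gclc WT and the highest Gclc KO liver, it was 2.86 (adjusted p = 0.0055). Summed B cell markers (6 genes) were 1.66 to 3.34 TPM in the Gclc WT and 0.405 to 2.45 TPM in the Gclc KO livers, and 0 of the 6 reached 1 TPM over all mice. Of the 4 motifs, the window of Cxcl13 held the ARE as TGACATTGC, 99 to 91 bases before the start, and that of Cxcl12 held none.

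Ccl2 encodes the main ligand of Ccr2 and draws monocytes out of the blood. Ccl2 (Entrez 20296) was 0.14, 0.16, 1.12 and 0 TPM in the Gclc WT mice 1 to 4 and 1.32, 3.89, 2.56 and 2.2 TPM in the Gclc KO mice 1 to 4. The genotypes did not overlap, but the gap between Gclc WT 3 and Gclc KO 1 was small. Means were 0.356 ± 0.514 and 2.49 ± 1.07 TPM (SD, n = 4 each). The log2 fold change was 1.38 (SE 0.29, 95% interval 0.72 to 2.04, limma adjusted p = 0.0117). Its size depended on the pseudocount, from 0.48 with 5 TPM to 3.03 with 0.1 TPM, and the call held with both. Ccl2 was listed at 0 in 11 of 16 Gclc WT libraries and 1 of 16 Gclc KO libraries.

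Ccl6 and Ccl9 encode CC chemokines that in mice act on Ccr1 and are produced by myeloid cells. Ccl6 (Entrez 20305) was 12.0, 10.4, 19.3 and 10.9 TPM in the Gclc WT mice 1 to 4 and 88.5, 84.5, 115 and 71.7 TPM in the Gclc KO mice 1 to 4. Of the 9 chemokines it separated the genotypes with the smallest adjusted p, and the mice of the 2 genotypes did not overlap. Means were 13.2 ± 4.17 and 90.0 ± 18.4 TPM (SD, n = 4 each), a 6.52-fold rise on the TPM + 1 scale (log2 fold change 2.70, SE 0.21, 95% interval 2.24 to 3.17, limma adjusted p = 0.000151).

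Ccl9 (Entrez 20308) was 33, 42.0, 47.0 and 40.7 TPM in the Gclc WT mice 1 to 4 and 44.4, 45.1, 65.2 and 59.1 TPM in the Gclc KO mice 1 to 4. Only Gclc WT 3 overlapped with the Gclc KO mice. Means were 40.7 ± 5.78 and 53.4 ± 10.4 TPM (SD, n = 4 each), with a log2 fold change of 0.38 (SE 0.16, 95% interval 0.02 to 0.73, limma adjusted p = 0.12). The ratio of Ccl6 to Ccl9 was 0.363, 0.247, 0.412 and 0.268 in the Gclc WT mice 1 to 4 and 2.00, 1.87, 1.77 and 1.21 in the Gclc KO mice 1 to 4. Ccl9 was the more abundant in every Gclc WT liver and Ccl6 in every Gclc KO liver. The 2 genes are neighbors on chromosome 11 with 0 protein-coding genes between them, and they are shown because their order reversed.
Ccl6 (chr11:83593088-83593237, minus strand): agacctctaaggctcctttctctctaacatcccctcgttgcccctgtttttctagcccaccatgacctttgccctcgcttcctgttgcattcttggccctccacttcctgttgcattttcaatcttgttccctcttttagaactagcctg
Ccl9 (chr11:83578637-83578786, minus strand): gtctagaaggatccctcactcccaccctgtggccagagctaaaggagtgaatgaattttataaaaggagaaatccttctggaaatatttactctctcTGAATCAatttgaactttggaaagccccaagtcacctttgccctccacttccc

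The Ccl9 window held the AP-1 motif as TGAATCA, 53 to 47 bases before the start. Ccl6, the one that rose, held 0 matches to the 4 motifs.

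Ccl24 encodes a ligand of Ccr3, the receptor of eosinophils, and is made by macrophages. Ccl24 (Entrez 56221) was 2.55, 1.46, 2.73 and 1.76 TPM in the Gclc WT mice 1 to 4 and 3.18, 4.82, 3.26 and 4.39 TPM in the Gclc KO mice 1 to 4. The genotypes did not overlap, though Gclc WT 3 and Gclc KO 1 were close. Means were 2.13 ± 0.609 and 3.92 ± 0.819 TPM (SD, n = 4 each), a 1.58-fold rise on the TPM + 1 scale (log2 fold change 0.66, SE 0.18, 95% interval 0.25 to 1.07, limma adjusted p = 0.0316). The call was lost in 8 of 22 alternatives, among them batch 2 alone (log2 fold change 0.47, adjusted p = 0.159) and the fits without Gclc WT 2, Gclc WT 4, Gclc KO 2 or Gclc KO 4 (adjusted p from 0.0695 to 0.0869).

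**Figure D3:**
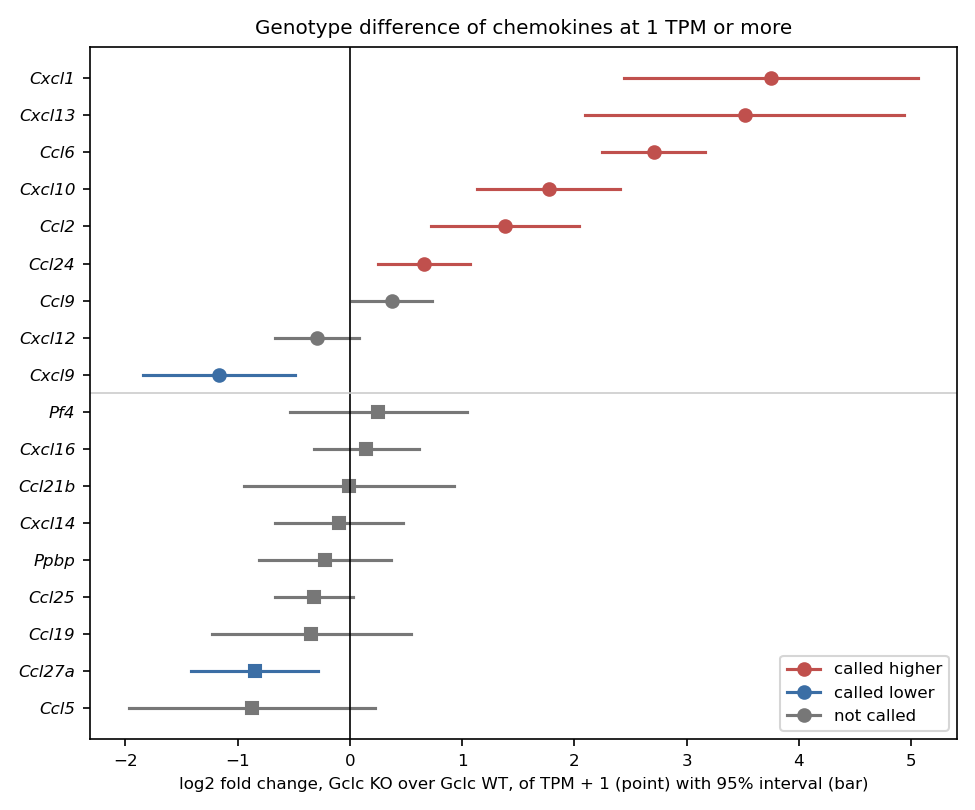
Points give the log2 fold change of Gclc KO over Gclc WT livers, on the TPM + 1 scale, and bars its 95% interval, for the 9 chemokines of the set (circles, above the line) and the 9 other chemokines at 1 TPM or more (squares, below it), with called genes in red (higher) or blue (lower). In the set, the intervals of Cxcl1, Cxcl13, Ccl6, Cxcl10, Ccl2, Ccl24 and the uncalled Ccl9 lie above 0, that of Cxcl9 lies below 0 and that of Cxcl12 spans it. Among the other chemokines only the interval of Ccl27a leaves 0 out.

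The rest of the family was low or not called higher. Of 30 other chemokine genes in the table, 9 reached 1 TPM, 21 were below it and 4 were at 0 in all 8 mice. Of the 9, 0 were called higher and 1 lower by limma, and the same numbers passed an unadjusted p of 0.05. Their median log2 fold change was −0.22, against 0.09 over all genes, of which 12.8% were called higher and 8.61% lower. The one called was Ccl27a, known as a skin chemokine and uncertain here because it has the near-identical copy Ccl27b, at 7.83 ± 3.14 TPM in the Gclc WT and 3.71 ± 0.788 TPM in the Gclc KO livers (SD, n = 4 each, limma adjusted p = 0.0397), and this call was lost in 12 of 22 alternatives. Ccl5, which attracts T cells, was 5.64 ± 3.76 and 2.07 ± 0.735 TPM (adjusted p = 0.228), and without Gclc WT 1, the lowest Gclc WT liver, it was called lower (adjusted p = 0.0114). Cxcl16, a membrane-bound ligand of Cxcr6, was 6.90 ± 2.01 and 7.73 ± 2.19 TPM (adjusted p = 0.652).

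The make-up of chemokine mRNA differed between the genotypes. The summed level of the 40 chemokine genes was 266.4, 307.6, 443.4 and 287.1 TPM in the Gclc WT mice 1 to 4 and 547.4, 690.8, 858.5 and 604.6 TPM in the Gclc KO mice 1 to 4, without overlap. Cxcl12 made up 60.0, 63.5, 55.6 and 62.3% of this sum in the Gclc WT mice 1 to 4 and 33.8, 25.7, 15.4 and 23.2% in the Gclc KO mice 1 to 4. Cxcl1 went from 1.42 to 12.0% of the sum in the Gclc WT to 16.9 to 33% in the Gclc KO livers. Shares are bound to each other, so the smaller share of Cxcl12 goes with a level that was not called different. The 10 genes of the set made up 86.7% or more of the sum in every liver. They were chosen with their differences known, so the separation of the sums largely restates that choice. Without them, the 30 other chemokine genes summed to 24.27 to 36.75 TPM per Gclc KO liver against 35.51 to 43.98 TPM for Gclc WT. Only Gclc KO 3 (36.75 TPM) lay within the Gclc WT range, and the other Gclc KO livers lay below it. The higher sum thus lay in the 10 genes of the set. The same choice fixed which genes were left over, so nothing is read from them about the family as a whole. The Gclc KO livers also differed among themselves in which gene led. Cxcl12 led in Gclc KO 1, at 33.8% against 28.4% for Cxcl1. Cxcl13 led in Gclc KO 3, at 40.2%, and Cxcl1 in Gclc KO 2 and Gclc KO 4, at 28.8 and 33%.

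**Figure D4:**
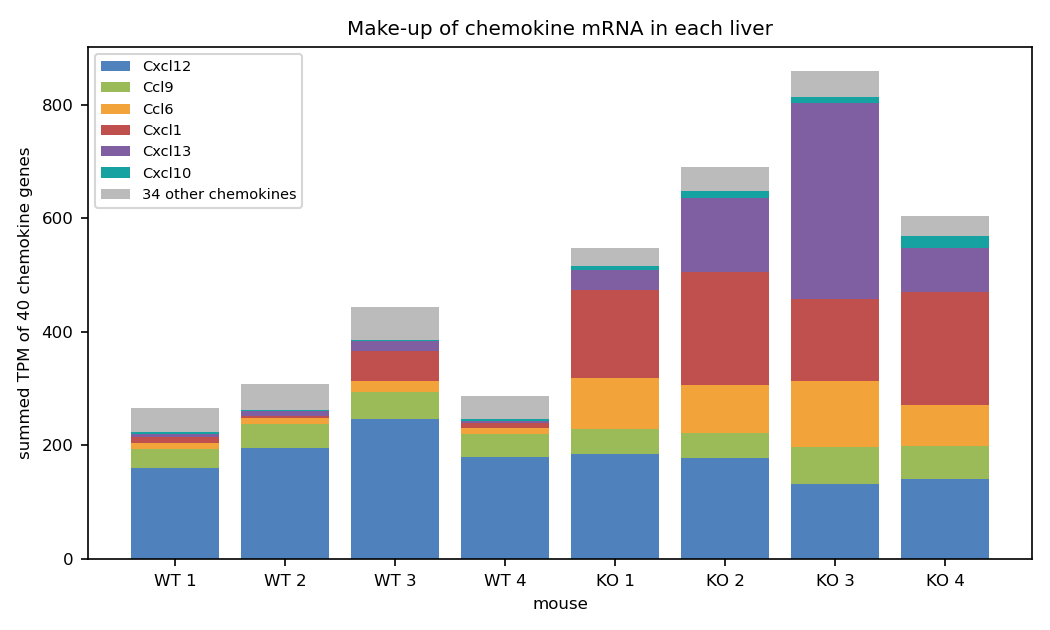
Bars give the summed TPM of 40 chemokine genes in each liver, stacked by gene. The 10 genes of the set, chosen with their differences known, make up 86.7% or more of each bar. The sum is 266.4 to 443.4 TPM in the 4 Gclc WT mice, mostly Cxcl12, and 547.4 to 858.5 TPM in the 4 Gclc KO mice, where Cxcl1, Cxcl13 and Ccl6 make up most of the added height.

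mRNAs of the receptors through which these chemokines act were scarce in whole liver. Of 19 chemokine receptor genes 2 reached 1 TPM, and limma called 0 of them, at the adjusted threshold or at an unadjusted p of 0.05. Cxcr4, the Cxcl12 receptor, was 1.14 ± 0.652 and 1.14 ± 0.503 TPM (adjusted p = 0.941). Cxcr2, Cxcr3, Cxcr5, Ccr2, Ccr1 and Ccr3, the receptors for the other ligands described here, all had means under 1 TPM. Of 6 atypical receptors, which lack signaling through G proteins, 4 reached 1 TPM and 0 were called at either threshold. Gpr182 of the liver endothelium was 18.8 ± 5.58 and 15.7 ± 5.19 TPM (adjusted p = 0.519), and Ccrl2 was 1.04 ± 0.434 and 1.35 ± 0.440 TPM (adjusted p = 0.517).

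Among cytokines known to induce chemokines and their receptors, 11 of 21 genes reached 1 TPM, 4 were called higher and 1 lower, with a median log2 fold change of 0.44. Over all genes, 12.8% were called higher and 8.61% lower, with a median of 0.09. Il1b, an inducer of Cxcl1 and Ccl2, was 0.91, 0.28, 1.72 and 0.56 TPM in the Gclc WT mice 1 to 4 and 2.62, 6.44, 9.84 and 4.29 TPM in the Gclc KO mice 1 to 4, without overlap (log2 fold change 1.80, limma adjusted p = 0.00731). Like Ccl2, Il1b reached the 1 TPM threshold only through the Gclc KO mice, since its control mean was 0.87 TPM. Its place among the 11 genes was thus partly set by the filter. The other 3 genes called higher encode receptors. Tnfrsf1a, a tumor necrosis factor receptor, rose from 58.3 ± 21.5 to 131 ± 20.9 TPM (adjusted p = 0.00696), and Il17ra, a receptor subunit for interleukin 17, from 20.2 ± 10.7 to 55.2 ± 13.03 TPM (adjusted p = 0.009). Il1r1, the signaling receptor of interleukin 1, was the fourth gene called higher, while Il1rap, its accessory protein, fell from 104 ± 16.5 to 54.4 ± 12.8 TPM (adjusted p = 0.00876). Ifng was listed at 0 in all 8 mice.

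NF-kB is the transcription factor family downstream of these receptors. Of 11 genes for NF-kB subunits and regulators, 5 were called higher and 0 lower (0 also at an unadjusted p of 0.05), with a median log2 fold change of 0.58. The shares over all genes were 12.8% called higher and 8.61% lower, and the median was 0.09. Nfkbiz, which encodes a nuclear co-regulator of NF-kB, rose from 3.57 ± 1.21 to 17.6 ± 2.72 TPM (SD, n = 4 each, log2 fold change 2.04, limma adjusted p = 0.000338). On the TPM + 1 scale, Nfkbib and Bcl3 rose 1.86-fold and 1.83-fold (adjusted p = 0.00177 and 0.00555), and Rela, a subunit of the classical dimer, 1.57-fold (adjusted p = 0.00848). Tnfaip3, a feedback inhibitor, was the fifth.

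Of 10 interferon-gamma response genes, 1 was called higher, 1 lower and 8 were not called, with a median log2 fold change of 0.24. Over all genes, 12.8% were called higher and 8.61% lower, with a median of 0.09. Igtp, an interferon-induced GTPase, rose from 16.8 ± 2.97 to 30.3 ± 8.70 TPM (adjusted p = 0.0305), a call lost in 8 of 23 alternatives. Of 10 genes for the display and cleavage of chemokines, 2 were called higher and 0 lower. Icam1, an adhesion molecule for arriving leukocytes, rose from 7.10 ± 2.61 to 33.7 ± 8.58 TPM (adjusted p = 0.000917), and Ext1, a heparan sulfate polymerase, from 23.1 ± 1.70 to 33.1 ± 6.36 TPM (adjusted p = 0.0322), a call lost in 6 of 23 alternatives. At an unadjusted p of 0.05, 4 genes of this list were higher and 1 lower.

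Markers of several cell types were summed in each liver. Over all genes, 12.8% were called higher and 8.61% lower. Summed Kupffer cell markers (11 genes, all at 1 TPM or more) were 315.9 to 850.9 TPM in the Gclc WT and 876.9 to 1466 TPM in the Gclc KO livers, with 5 of 11 called higher and 0 lower. Among them Marco, a scavenger receptor, was at 16.1 TPM in the Gclc WT and 191 TPM in the Gclc KO livers on average, while Folr2 was 20.2 and 15.6 TPM. Without Marco, a sum formed after the values were seen, the other 10 markers overlapped between the genotypes, at 309.4 to 828.8 TPM and 722.4 to 1130.0 TPM, with Gclc WT 3 above Gclc KO 2 and Gclc KO 4. The other Gclc WT livers, at 309.4 to 459.5 TPM, lay below every Gclc KO liver. Summed monocyte markers (8 genes, 5 at 1 TPM) were 11.6 to 60.3 TPM and 39.1 to 57.7 TPM, with 2 called higher and 0 lower, and Gclc WT 3 was the highest of all 8 mice. The 2 called were Plac8 and Itgam. Chil3 had a higher mean in the Gclc KO livers without a call. Ly6c2 (2.28 to 0.649 TPM) and S100a4 (5.29 to 1.08 TPM) had lower Gclc KO means, also without a call. The part of Kupffer cells and monocytes in the differences of Cxcl1, Cxcl13, Ccl6, Ccl2 and Ccl24 was not tested.

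Neutrophil markers (10 genes, 7 at 1 TPM) were not called in either direction. Outside Gclc WT 3 their sum was 3.53 to 13.1 TPM in the Gclc WT and 7.22 to 22.9 TPM in the Gclc KO livers, and Gclc WT 3 had 104 TPM of S100a8 and 121.7 TPM of S100a9. Gclc WT 3 was also the highest Gclc WT mouse for Cxcl1, Cxcl2, Cxcl9, Cxcl12, Cxcl13, Ccl2, Ccl6, Ccl9 and Ccl24, and the lowest for Cxcl10. T and NK cell markers (10 genes, 4 at 1 TPM), whose cells carry Cxcr3, summed to 5.68 to 12.4 TPM in the Gclc WT and 4.02 to 6.16 TPM in the Gclc KO livers, with 0 called and 2 lower at an unadjusted p of 0.05. Their part in the fall of Cxcl9 was not tested. Eosinophil markers (6 genes) were at or near 0, with sums of 0 to 2.47 TPM in the Gclc WT and 0.18 to 0.875 TPM in the Gclc KO livers, and none reached 1 TPM over all mice.

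Cxcl12 is known as a product of stromal cells. Sinusoidal endothelial markers (10 genes) summed to 173.3 to 259 TPM and 135.7 to 239.3 TPM, with 1 called higher and 2 lower, and stellate cell markers (8 genes) to 251.9 to 407.5 TPM and 202 to 283.8 TPM, with 0 higher and 3 lower. Their part in the Cxcl12 level was not tested. Over all genes, 12.8% were called higher and 8.61% lower.

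**Figure D5:**
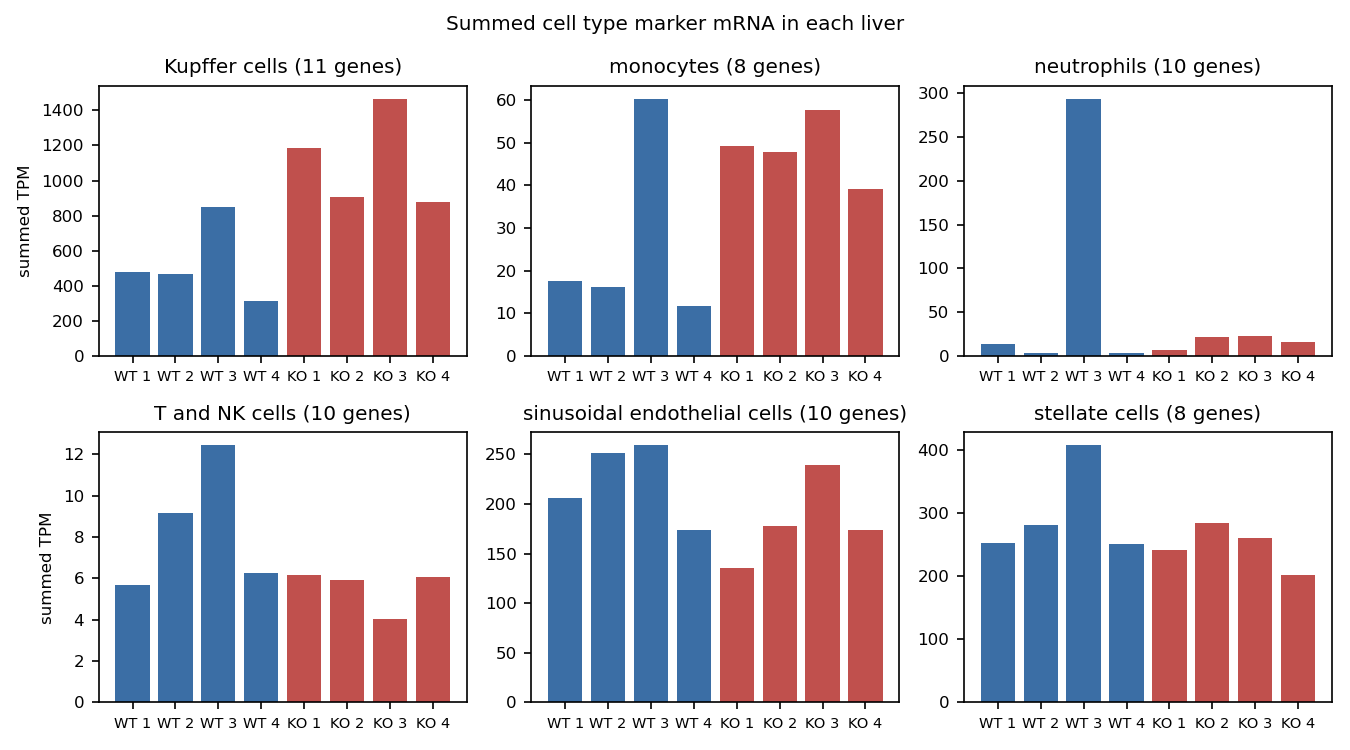
Bars give the summed TPM of the marker genes of 6 cell types in each liver, blue for Gclc WT and red for Gclc KO mice, each panel with its own scale from 0. Kupffer cell markers are at 876.9 TPM or more in all 4 Gclc KO livers and at 850.9 TPM or less in the Gclc WT livers. When Marco is left out, Gclc WT 3 is the only Gclc WT liver within the Gclc KO range. The neutrophil markers of Gclc WT 3 (294 TPM) exceed those of all other mice.

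Likeness across mice was described with Pearson's r of log2(TPM + 1) over the 8 mice, among the 5749 genes that averaged 10 TPM or more. The 8 points fall into 2 genotypes, so any gene with a genotype difference of the same sense scores high, and 310 genes had an r above 0.9 with Cxcl1. The genes most like Cxcl1 were Slc17a1 (r = 0.993), Lbp (r = 0.989), which encodes the lipopolysaccharide binding protein, and Peo1 (r = 0.984). The genes most like Ccl6 were Nfkbiz (r = 0.996), the NF-kB co-regulator above, Hmox1 (r = 0.994), the heme-degrading enzyme, and Pnp (r = 0.991). Those most like Cxcl13 were Sult1e1 (r = 0.982), the macrophage lipopolysaccharide receptor gene Cd14 (r = 0.972) and Slc35f6 (r = 0.971). Slc17a1, Nfkbiz, Sult1e1, Cd14 and Slc35f6 averaged under 10 TPM in the Gclc WT livers (6.47, 3.57, 1.22, 3.85 and 8.57 TPM). They passed the floor only through the Gclc KO livers, so a high r with chemokines higher there was partly set by the filter.

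The genes most like Cxcl10 were Rraga (r = 0.985), Dpf2 (r = 0.981) and Ppp2r1a (r = 0.976). For Cxcl9 they were Cd74 (r = 0.967), the invariant chain of class II antigen presentation, Mmd (r = 0.966) and Ube2l6 (r = 0.963). Cd74 was 96.7 TPM in the Gclc WT and 45.4 TPM in the Gclc KO livers on average. Cxcl12 was most like 3 hepatocyte genes, Proz (r = 0.975), Fbp1 (r = 0.964) and Akr1d1 (r = 0.952). The closest genes were Pid1 (r = 0.986) for Ccl2, Arpc5 (r = 0.981) for Ccl9 and Wdr46 (r = 0.990) for Ccl24.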

How the data were processed

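RNA-seq of mouse liver was analysed from 32 libraries of 8 mice (4 Gclc WT, 4 Gclc KO), each with 4 libraries that carry batch and run numbers in the labels. The meaning of these numbers is not stated, and the 4 values of each mouse were averaged as technical repeats. RNA was purified on columns and made into directional mRNA libraries. For tamoxifen, the dose in the study methods is somewhat above that in the labels. The members and gene lists were chosen with earlier results of these data known.

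The authors deposited expression values per library and gene, which are named as normalized counts but sum to between 999315 and 999534 per library, and these deposited values were taken as TPM. Read files were made with bcl2fastq 2.2, per the submitters' processing notes. Not given in the sources used here are the aligner, quantifier and genome build. Of 20896 rows, 75 repeated a symbol with identical values and were dropped. TPM keeps no depth, so no counting interval can be given. Genes above 0 numbered 13280 to 14016 in libraries of batch 1 and 12341 to 13193 in batch 2.

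Genes averaging 1 TPM or more over the 8 mice were compared on log2(TPM + 1), which understates the change of low genes, with limma 3.58.1 in R 4.3.3 (mean-variance trend, two-sided, no covariates, Benjamini-Hochberg over 11284 genes, adjusted p of at most 0.05). Adjusted p-values are from this model or, where an alternative is named beside them, from its refit under that alternative. Named genes were every member, up to 4 called genes per pathway list with the smallest adjusted p (or the 2 most abundant where fewer than 2 were called), the 3 most alike genes per member, and the highest or lowest markers. Other genes named were chosen after their values were seen. Alternatives covered pseudocount, filter, scaling, robust fit, replicate block, mouse tag range, Xist, single batches, library median and each mouse left out. Values of 2 genes that this rule names are not reported here.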

Additional observations from a re-analysis of the deposited data

Results flagged for a closer look

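In 78 groups of 4 mice (each chemokine, named gene and marker sum in each genotype), 3 held a mouse whose gap to the others exceeded Dixon's 95% critical value, which is 3.85% where chance gives about 5%. Cxcl9 in Gclc KO 1 was 2.13 on the log2(TPM + 1) scale against 1.01 to 1.19 in the other 3 Gclc KO mice. Summed eosinophil markers in Gclc WT 3 were 1.79 on the log2(summed TPM + 1) scale with the other 3 Gclc WT mice at 0 to 0.17. Summed T and NK cell markers in Gclc KO 3 were 2.33 on that scale against 2.79 to 2.84 in the other Gclc KO mice.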

How the results depend on the processing

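Cxcl1, Cxcl10, Cxcl13, Ccl2 and Ccl6 were called higher under every alternative that tested them (22 or 23 each), and Cxcl12 and Ccl9 were called under none of 23. Of the 9 chemokines, 6 were called higher, and a filter at 10 TPM, which left 5 of them, called 3 higher and 0 lower. Called lower was 1 member, and 0 without the 3 mice with Xist, or 0 to 1 with each mouse left out. With each mouse left out in turn, 698 to 1851 genes were called higher and 557 to 950 lower, both lowest without Gclc WT 2. A trimmed mean of M values shifted the median of all genes by −0.09 and gave 1190 higher and 1474 lower genes, so that 44.7% of calls were higher, against 59.7% (1439 higher, 972 lower). Among other chemokines the count called lower was 1 (Ccl27a), and 0 without a filter, with the tag range as covariate, in batch 2 alone and with library medians, and 0 to 1 on leaving out single mice. In batch 1 alone and without Gclc WT 1 the 1 gene called was not Ccl27a but Ccl25 (adjusted p = 0.00842) and Ccl5 (adjusted p = 0.0114), respectively. None of them could be tested with the filter at 10 TPM. The uncalled Cxcl16 and Cxcr4 changed sign. Cxcl16 had a log2 fold change of −0.015 without Gclc KO 3 (−0.015 to 0.31 with each mouse left out). Cxcr4 went from 0.04 to −0.0018 with trimmed-mean scaling, −0.10 with Xist as covariate or without the mice with Xist, −0.034 with library medians, and −0.22 to 0.17 with each mouse left out. The causes were not tested.

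With the mouse number as a replicate block, 1341 genes were called higher and 874 lower, and Ccl24 and Ext1 lost their calls (adjusted p = 0.0724 and 0.0573). Deviations of same-numbered mice correlated at 0.0623, −0.12, 0.345 and 0.26 for mice 1 to 4, and those of differently numbered mice at −0.358 to 0.222. Mice 3 and 4 lay above that range and mice 1 and 2 within it. These values do not settle whether the numbers pair the mice. The labels state no pairing, and the main model used none. With 4 mice per genotype and unknown depth, low genes such as Cxcl2, Ccl2 and Ccl24 limit what can be said of their fold changes.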
